A study of Rattus norvegicus with 23 samples.

Results

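The T cell receptor and T cell identity genes were measured in blood mononuclear cells of weanling rats. The genes were chosen by name from a list of 36 names that covers the receptor complex, its coreceptors, the signalling proteins next to it, costimulatory and cytokine receptors, surface markers and the transcription factors of the T lineage. Of these names 32 matched the gene name of at least 1 array probe, through 40 probes, and all 32 passed the filter on dim probes, among 20177 features tested in all. Lck, Cd27 and Trat1 were not matched by gene name, and Cd247 is the same gene as Cd3z, the name under which it was measured. The rule takes genes by name and, where a gene has several probes, the brightest one.

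A T cell recognises a peptide held by an MHC molecule through its T cell receptor, a pair of variable chains that reach the surface only together with the signalling chains CD3 gamma, delta, epsilon and zeta. CD4 and CD8 bind the MHC molecule beside the receptor and bring a Src-family kinase to it, the CD3 and zeta chains are then phosphorylated, the kinase ZAP-70 binds them, and ZAP-70 phosphorylates the adaptors LAT and SLP-76 (gene Lcp2). Factors such as TCF-1 (gene Tcf7), LEF-1, BCL11B and GATA3 set up and keep the T cell programme in the thymus and in naive T cells.

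Peripheral blood mononuclear cells, the lymphocytes and monocytes that a Ficoll density gradient separates from other blood cells, were taken at weaning from 21-day-old Wistar pups. In the control groups the dams ate standard chow freely (6 male and 6 female arrays), and in the CR groups the dams received 20% fewer calories, from day 1 after delivery until weaning (5 male and 6 female arrays). No genetic change or other treatment of the pups is stated, and all were killed in the fed state. The question put to the arrays was how restriction of the nursing dam relates to gene expression in the blood cells of her sons and daughters. There were 11 control and 5 CR dams. Which dam nursed which pup is not stated, so some arrays of a group may share a dam, more so in the CR groups, and p-values computed over pups may be too small.

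Each pup's RNA was labelled with Cy5 and hybridised against a Cy3-labelled pool of all the pups' RNA, so a level is the log2 ratio of one pup to that pool, where 0 is the pool's level, and a difference of 1 would be a doubling. The 23 arrays lay on 6 slides. Between 20603 and 24076 probes per array were well above background in Cy5, of 41012. Of the 32 genes, Cd28 was well above background on 22 arrays and every other one on all 23, and no T cell gene's probe was saturated, so RNA of T cell genes was measured in all 4 groups. These genes do not define the whole mixture, and markers of the other blood cells are given with the last results. In RNA from a mixture of cells, fewer T cells and less of an RNA per T cell cannot be told apart. CR female 6 and CR male 2 had the lowest array quality weights, 0.42 and 0.59 on a scale where 1 is an array of average quality, and CR female 6 was the lowest CR female for many of the T cell genes.

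Promoter sequences are shown for 6 of the genes: Cd3e and Cd2, whose levels were closely alike from pup to pup, Cd3d and Cd3g, which lie next to each other, and Tcf7 and Il7r, which had the widest gaps between the male diet groups. Each window holds the 250 bases before the gene's start, from RefSeq on the GRCr8 build, written 5′ to 3′ on the gene's own strand. Capitals mark matches, on either strand, to the letters searched for 5 families of T cell transcription factors, which were CTTTGA for the TCF and LEF proteins, AGATAA for the GATA proteins, TGTGGT for the RUNX proteins, CAGGTG for the E proteins (the E-box) and AGGAAG for the ETS proteins.
Cd3e, chromosome 8, 54211771 to 54212020, minus strand: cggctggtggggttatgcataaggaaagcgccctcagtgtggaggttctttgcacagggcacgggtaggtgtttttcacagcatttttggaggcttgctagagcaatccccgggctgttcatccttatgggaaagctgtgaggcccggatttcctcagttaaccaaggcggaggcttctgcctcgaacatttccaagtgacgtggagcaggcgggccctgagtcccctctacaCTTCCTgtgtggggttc
Cd2, chromosome 2, 191412660 to 191412909, minus strand: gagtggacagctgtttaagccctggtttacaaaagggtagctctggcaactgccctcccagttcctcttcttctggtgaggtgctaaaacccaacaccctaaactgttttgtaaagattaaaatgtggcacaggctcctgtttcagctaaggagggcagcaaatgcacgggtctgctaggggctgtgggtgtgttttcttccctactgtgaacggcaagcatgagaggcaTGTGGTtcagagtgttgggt
Cd3d, chromosome 8, 54185269 to 54185518, plus strand: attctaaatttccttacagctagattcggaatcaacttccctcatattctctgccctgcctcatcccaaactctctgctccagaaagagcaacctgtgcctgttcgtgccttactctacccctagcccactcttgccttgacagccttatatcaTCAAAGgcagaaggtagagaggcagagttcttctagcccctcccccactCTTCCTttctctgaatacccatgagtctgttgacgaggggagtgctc
Cd3g, chromosome 8, 54183919 to 54184168, minus strand: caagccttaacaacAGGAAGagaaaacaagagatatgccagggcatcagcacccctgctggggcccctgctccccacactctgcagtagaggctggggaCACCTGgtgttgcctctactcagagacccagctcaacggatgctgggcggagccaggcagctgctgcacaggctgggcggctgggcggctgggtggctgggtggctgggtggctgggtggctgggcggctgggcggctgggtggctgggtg
Tcf7, chromosome 10, 36954280 to 36954529, minus strand: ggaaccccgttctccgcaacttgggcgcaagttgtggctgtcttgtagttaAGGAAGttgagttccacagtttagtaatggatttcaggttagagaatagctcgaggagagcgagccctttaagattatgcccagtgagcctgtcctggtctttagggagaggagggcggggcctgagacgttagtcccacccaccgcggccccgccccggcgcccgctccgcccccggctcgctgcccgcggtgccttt
Il7r, chromosome 2, 60204918 to 60205167, minus strand: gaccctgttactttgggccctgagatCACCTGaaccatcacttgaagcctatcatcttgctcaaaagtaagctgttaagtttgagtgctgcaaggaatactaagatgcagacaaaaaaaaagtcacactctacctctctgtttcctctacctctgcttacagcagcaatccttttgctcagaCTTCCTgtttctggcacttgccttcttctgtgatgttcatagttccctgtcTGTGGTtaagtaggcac

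In these 6 windows the ETS letters occurred in Cd3e, Cd3d, Cd3g, Tcf7 and Il7r, the RUNX letters close to the start of Cd2 (20 bases before it) and Il7r (17 bases before it), the TCF/LEF letters in Cd3d, and the E-box letters in Cd3g and Il7r. Among the 27 members with a window of this length, the ETS letters were present in 15, the E-box letters in 9, the RUNX letters in 7, the TCF/LEF letters in 6 and the GATA letters in 1. The same letters were present in 29.5%, 15.9%, 14.5%, 13.9% and 10.3% of all 33469 promoter windows. A match of 6 letters is a description of these windows and not a binding site. In GRCr8 the starts of Cd3g and Cd3d lie 1601 bases apart on opposite strands, and Cd3e starts 26251 bases beyond Cd3d.

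None of the 32 genes differed between CR and control pups at an adjusted p under 0.05, whichever sex was tested or with both averaged, where 0% of all features passed in each case. In CR males 24 of the 32 genes lay above their control mean, where 47.1% of all features did. Their median difference was 0.08 on the log2 scale beside -0.01 for all features. In CR females 13 of 32 did, where 51.6% of all features did, with a median of -0.06 beside 0. The male count and median did not hold under 1 other normalization, in which each array was only centred on its median. There 3 of 32 lay above 0, where 20.8% of all features did, and the male median was -0.31. The median of all features moved to -0.19 and that of the 3462 features brighter than the median T cell gene to -0.49. The female median was 0.01 without CR female 6, and it was 0.02 with array quality weights.

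Limma's unadjusted p was under 0.05 for 5 of the 32 genes on the higher side in CR males (Tcf7, Il7r, Tox, Cd3d and Icos), where 3.02% of all features were, and for 2 on the lower side (Thy1 and Il2ra), where 4.09% were. In females it was under 0.05 for 0 genes on the higher side, against 2.01% of all features, and for 1 on the lower side (Satb1), against 2.68%. For the mean of the sexes the counts were 2 higher (Cd3d and Tox, against 2.46%) and 0 lower (against 4.88%). None of these counts carries an adjusted call. The male count of 7 fell to 3 without CR male 5. It also fell without some single female arrays, which enter the male test only through the shared estimate of the spread. Limma's unadjusted p lay close to 0.05 for Icos (0.0493), Il2ra (0.0482) and Thy1 (0.047) in males.

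**Figure D1:**
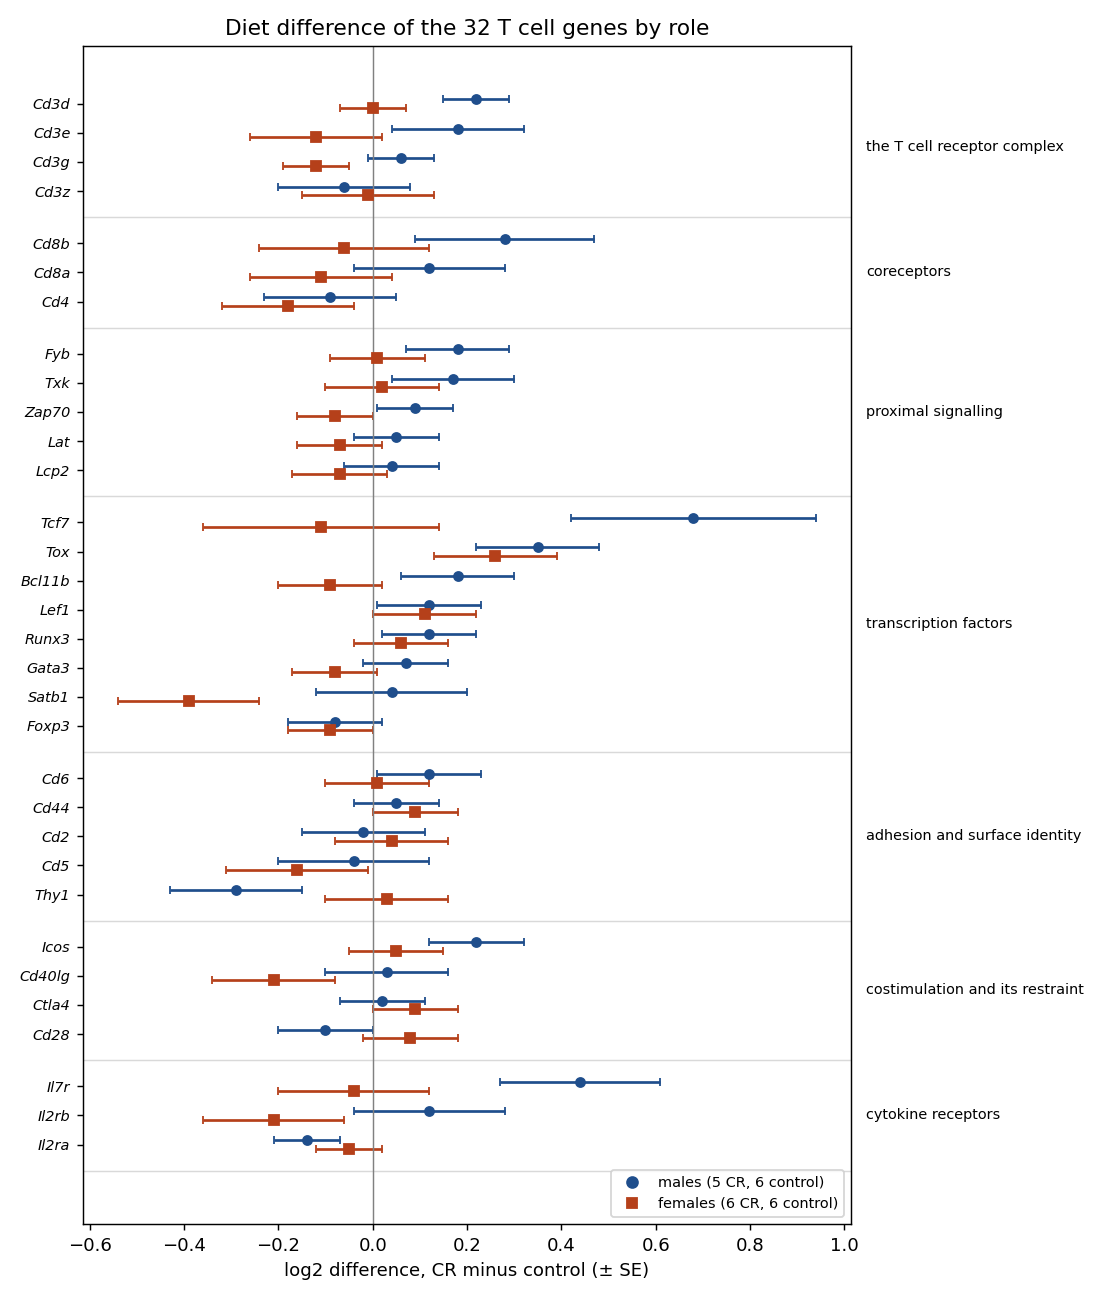
Log2 difference between CR and control pups for the 32 T cell genes (horizontal axis), ordered by role, in males (circles) and females (squares), with bars of 1 SE from the limma fit. Tcf7 has the highest male value (0.68) and Satb1 the lowest female value (-0.39), most male values lie to the right of 0, and no gene passed an adjusted p of 0.05; with median centring in place of loess most male values lie to the left.

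The chains of the receptor complex were measured through Cd3d, Cd3e, Cd3g and Cd3z. Cd3d, the CD3 delta chain (probe on chromosome 8, 47936669 to 47936728 of the rn4 build), ranged from -0.31 to 0.11, with a median of -0.21, in control males. The CR males were at 0.08, 0.02, -0.09, 0.10 and 0.13, in the order of their replicate numbers, above most but not all control males. The difference was 0.22 ± 0.07 (SE; adjusted p = 0.647, 95% interval 0.07 to 0.36), and an exact permutation test over the 11 male arrays, two-sided, gave p = 0.0238 before any adjustment. The exact test was run for every gene of the list in both sexes, and its p is printed for some of them only. It uses the same values as limma, so it is not separate support. Control females were at -0.35 to -0.05 (median -0.16) and CR females at -0.26 to -0.05 (median -0.17), a difference of 0.00 ± 0.07. The CR females lay within the range of the control females. With median centring the male difference of Cd3d was -0.32.

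Cd3e, the CD3 epsilon chain that pairs with both delta and gamma (probe on chromosome 8, 47950313 to 47950372, rn4), was at -0.13 to 0.54, with a median of 0.09, in control males. In CR males it was at 0.56, 0.39, 0.23, 0.14 and 0.22. The ranges overlapped, with a difference of 0.18 ± 0.14 (adjusted p = 0.821, 95% interval -0.12 to 0.47), or -0.32 with median centring. In females the control pups were at -0.09 to 0.49 (median 0.21) and the CR pups at -0.60 to 0.36 (median 0.21), a difference of -0.12 ± 0.14 (adjusted p = 0.991, 95% interval -0.40 to 0.16). The lowest CR female was replicate 6, and the nearest other CR female was at 0.01.

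Cd3g, the CD3 gamma chain, spanned -0.19 to 0.10, with a median of -0.04, in control males and stood at 0.05, 0.03, -0.26, 0.11 and 0.15 in CR males. Its differences were 0.06 ± 0.07 in males (-0.47 with median centring) and -0.12 ± 0.07 in females, where control pups were at -0.15 to 0.04 (median -0.05) and the 5 CR pups with a value at -0.28 to -0.05 (median -0.20). The CR females sat at or below the control median. For Cd3g in females limma gave p = 0.0975 before adjustment and 0.991 after it, and the exact permutation test gave p = 0.0411 before any adjustment. Cd3z, the zeta chain that carries most of the complex's phosphorylation sites, covered -0.10 to 0.58, with a median of 0.33, in control males against 0.04, 0.37, 0.22, 0.29 and 0.30 in CR males. The differences of Cd3z were -0.06 ± 0.14 in males and -0.01 ± 0.14 in females, where controls were at 0.05 to 0.51 (median 0.30) and CR pups at -0.51 to 0.55 (median 0.41). CR female 6 was again the lowest value, and the other CR females lay inside the control range or just above it.

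Of the coreceptors, Cd4 marks helper T cells and, in the rat, is also carried by monocytes, and Cd8a and Cd8b encode the chains of CD8 on cytotoxic T cells, the alpha chain being found on rat NK cells as well. Cd4 was at 0.01 to 0.73, with a median of 0.21, in control males and at 0.06, 0.59, 0.17, 0.12 and 0.03 in CR males, a difference of -0.09 ± 0.14. In females it was at 0.14 to 0.58 (median 0.28) in controls and -0.38 to 0.61 (median 0.09) in CR pups, a difference of -0.18 ± 0.14. The groups overlapped in both sexes, with CR male 2 apart from the other CR males on the high side.

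Cd8a ran from -0.36 to 0.26, with a median of -0.24, in control males, and the CR males were close together at 0.11, -0.08, -0.02, -0.06 and 0.00. Its differences were 0.12 ± 0.16 in males (-0.36 with median centring) and -0.11 ± 0.15 in females, where controls were at -0.28 to 0.26 (median 0.06) and CR pups at -0.80 to 0.38 (median -0.05). Cd8b ran from -0.77 to 0.30, with a median of -0.42, in control males against 0.44, -0.21, -0.12, -0.05 and -0.09 in CR males, a difference of 0.28 ± 0.19 (-0.20 with median centring). In females Cd8b was at -0.42 to 0.28 (median -0.04) in controls and -0.60 to 0.28 (median -0.01) in CR pups, a difference of -0.06 ± 0.18. The spread among control males (SD 0.27 for Cd8a and 0.39 for Cd8b) was wider than the male diet difference, and CR female 6 was the lowest CR female for both.

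**Figure D2:**
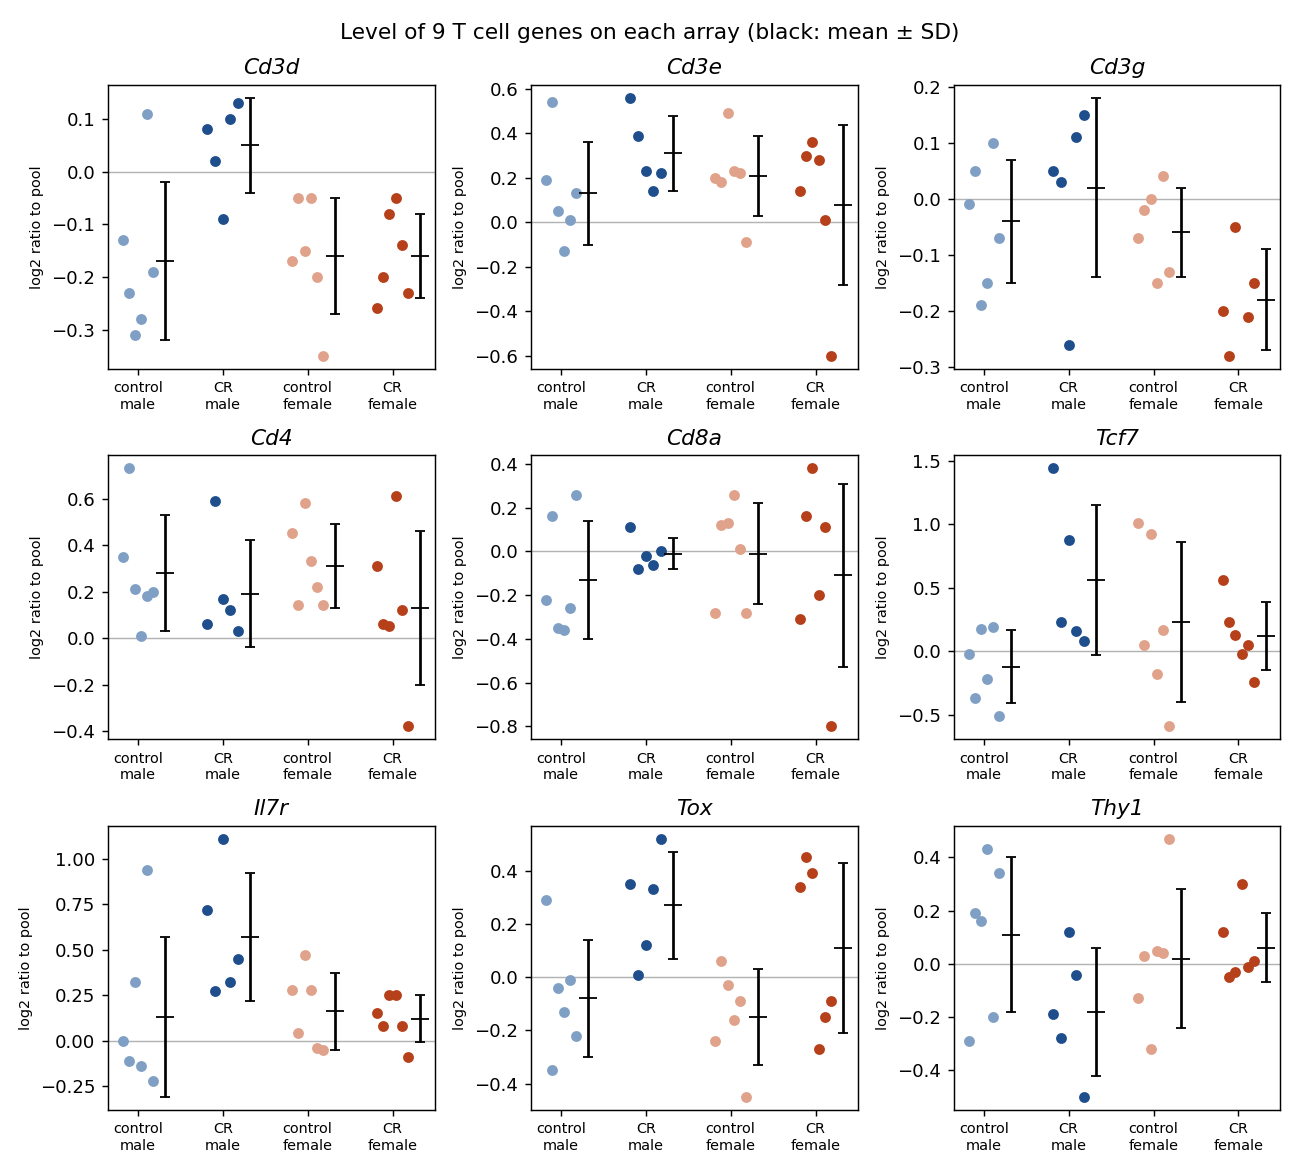
Log2 ratio to the pool (vertical axis) of 9 T cell genes on each of the 23 arrays, by group, each panel with its own scale; dots are pups and the black bars are the mean ± SD of the group. For Tcf7 a pair of CR males (1.44 and 0.88) stands above the other 3 (0.08 to 0.23), and in every panel the CR and control ranges of each sex overlap.

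The proximal signalling genes were Zap70, Lat, Lcp2, Txk (a Tec-family kinase of T cells) and Fyb (the adhesion adaptor ADAP). All 5 were above 0 in males, with differences from 0.04 to 0.18, and 2 of 5 in females, with differences from -0.08 to 0.02; in males all but Fyb turned negative with median centring. Zap70 was at -0.22 to 0.28, with a median of 0.14, in control males and at 0.11, 0.24, 0.21, 0.14 and 0.23 in CR males (difference 0.09 ± 0.08). In females it was at 0.00 to 0.47 (median 0.16) and -0.10 to 0.26 (median 0.11) in control and CR pups (difference -0.08 ± 0.08). The CR males were less spread than the control males but stayed inside their range.

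Lat took values from -0.08 to 0.47, with a median of 0.26, in control males, 0.29, 0.46, 0.21, 0.23 and 0.30 in CR males, 0.03 to 0.42 (median 0.29) in control females and 0.01 to 0.41 (median 0.17) in CR females, with differences of 0.05 ± 0.09 and -0.07 ± 0.09. Lcp2 took values from -0.10 to 0.47, with a median of 0.21, in control males, 0.40, 0.34, 0.44, 0.08 and 0.11 in CR males, 0.00 to 0.47 (median 0.26) in control females and -0.04 to 0.38 (median 0.19) in CR females, with differences of 0.04 ± 0.10 and -0.07 ± 0.10. For both adaptors the CR males lay inside the control range, and in females the ranges of the diet groups overlapped over most of their length.

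Txk was at -0.24 to 0.28, with a median of -0.02, in control males and 0.29, 0.09, 0.19, 0.15 and 0.07 in CR males (difference 0.17 ± 0.13). Its female values were -0.33 to 0.10 (median 0.03) in controls and -0.64 to 0.34 (median 0.08) in CR pups (difference 0.02 ± 0.12), with replicate 6 the lowest in both female groups. Fyb was at -0.20 to 0.37, with a median of 0.03, in control males and 0.33, -0.13, 0.45, 0.10 and 0.28 in CR males (difference 0.18 ± 0.11), and at -0.20 to 0.19 (median 0.05) and -0.25 to 0.23 (median 0.03) in control and CR females (difference 0.01 ± 0.10). No CR male lay under 0 for Txk, and 1 did for Fyb.

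Among the 8 transcription factors, 7 were above 0 in males (range -0.08 to 0.68) and 3 in females (-0.39 to 0.26). Tcf7 encodes TCF-1, which thymocytes and naive and memory-precursor T cells carry at high levels (probe on chromosome 10, 37691480 to 37691539, rn4). The control males were at -0.51 to 0.19, with a median of -0.12, and the CR males at 1.44, 0.23, 0.88, 0.16 and 0.08. Replicates 1 and 3 stood high and the other 3 CR males lay at the upper end of the control range or just above it. The difference was 0.68 ± 0.26 (adjusted p = 0.657, 95% interval 0.14 to 1.22), and the two-sided exact permutation test gave p = 0.0216 without adjustment. Control females were at -0.59 to 1.01 (median 0.11) and CR females at -0.24 to 0.56 (median 0.09), a difference of -0.11 ± 0.25 (adjusted p = 0.994). The male difference of Tcf7 stayed above 0 under every alternative run, from 0.40 to 0.88.

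Tox, a factor of CD4 lineage development in the thymus that also marks chronically stimulated T cells, was at -0.35 to 0.29, with a median of -0.09, in control males and at 0.35, 0.01, 0.12, 0.33 and 0.52 in CR males. CR pups were also on the higher side in females, at -0.27 to 0.45 (median 0.12) against -0.45 to 0.06 (median -0.12) in controls. The differences were 0.35 ± 0.13 in males (adjusted p = 0.657), 0.26 ± 0.13 in females and, with the sexes averaged, 0.30 ± 0.09 (adjusted p = 0.585), the largest of the 32 in that comparison. The exact permutation test gave p = 0.0281 in males and 0.11 in females, without adjustment. The second Tox probe gave -0.07 ± 0.10 in males and 0.10 ± 0.09 in females, and the brighter probe gave -0.05 in males with median centring.

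Satb1, a chromatin organiser needed for T cell development, had its lower values in CR females, at -0.36 to 0.46 (median 0.18) against 0.20 to 1.01 (median 0.35) in controls, a difference of -0.39 ± 0.15 (adjusted p = 0.991). In males the values were -0.19 to 0.52, with a median of 0.25, in controls and 0.24, 0.17, 0.38, 0.26 and 0.31 in CR pups (difference 0.04 ± 0.16). The dimmer Satb1 probe gave -0.08 ± 0.28 in females, and for the brighter one the exact permutation test in females gave p = 0.0952. Bcl11b, which commits precursors to the T lineage, was at 0.07 to 0.45, with a median of 0.22, in control males, 0.42, 0.13, 0.47, 0.50 and 0.69 in CR males, -0.01 to 0.78 (median 0.42) in control females and 0.18 to 0.59 (median 0.34) in CR females (differences 0.18 ± 0.12 and -0.09 ± 0.11). Both Bcl11b probes had the same signs. In males both genes turned negative with median centring.

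Lef1, the partner of Tcf7 in naive T cells, was at 0.04 to 0.38, with a median of 0.20, in control males, 0.27, 0.06, 0.22, 0.40 and 0.64 in CR males, 0.03 to 0.43 (median 0.26) in control females and 0.02 to 0.72 (median 0.25) in CR females (differences 0.12 ± 0.11 and 0.11 ± 0.11). Gata3, the factor of helper type 2 cells and of early T cell development, was at 0.01 to 0.41, with a median of 0.23, in control males, 0.08, 0.46, 0.38, 0.00 and 0.44 in CR males, 0.10 to 0.42 (median 0.22) in control females and -0.04 to 0.30 (median 0.15) in CR females (differences 0.07 ± 0.09 and -0.08 ± 0.09). The groups overlapped for both, and in males both differences were negative with median centring.

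Runx3, which silences Cd4 in the cytotoxic lineage, was at -0.08 to 0.30, with a median of 0.12, in control males, 0.46, 0.10, 0.19, 0.22 and 0.18 in CR males, -0.17 to 0.32 (median 0.16) in control females and -0.17 to 0.33 (median 0.23) in CR females (differences 0.12 ± 0.10 and 0.06 ± 0.10). Foxp3, the factor of regulatory T cells, was at -0.02 to 0.37, with a median of 0.19, in control males, -0.09, 0.44, 0.01, -0.01 and 0.17 in CR males, -0.01 to 0.30 (median 0.18) in control females and -0.14 to 0.35 (median 0.04) in CR females (differences -0.08 ± 0.10 and -0.09 ± 0.09). Under the reported processing Foxp3 was the only factor of the 8 below 0 in both sexes, by less than its SE in males and by about its SE in females. Runx3 turned negative in males with median centring.

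The cytokine receptors were the IL-7 receptor, which keeps naive T cells alive, and 2 chains of the IL-2 receptor. Il7r (probe on chromosome 2, 59108928 to 59108987, rn4) was at -0.22 to 0.94, with a median of -0.06, in control males and at 0.72, 0.27, 1.11, 0.32 and 0.45 in CR males. Control male 5, at 0.94, was higher than 4 of the 5 CR males. The difference was 0.44 ± 0.17 (adjusted p = 0.657, 95% interval 0.09 to 0.80), and the two-sided exact permutation test gave p = 0.117. In females Il7r was at -0.05 to 0.47 (median 0.16) in controls and -0.09 to 0.25 (median 0.11) in CR pups (difference -0.04 ± 0.16). The male difference of Il7r stayed above 0 under every alternative run, from 0.17 to 0.61.

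Il2ra, the inducible alpha chain of the IL-2 receptor (CD25), was at 0.07 to 0.38, with a median of 0.12, in control males, 0.07, 0.22, -0.12, -0.08 and 0.02 in CR males, -0.01 to 0.12 (median 0.10) in control females and -0.05 to 0.26 (median -0.01) in CR females. Its differences were -0.14 ± 0.07 in males (adjusted p = 0.702, exact permutation p = 0.0909) and -0.05 ± 0.07 in females. The dimmer Il2ra probe gave 0.08 ± 0.08 in males, on the other side of 0. Il2rb, the beta chain shared with NK cells, had differences of 0.12 ± 0.16 in males and -0.21 ± 0.15 in females.

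Of the costimulation genes, Icos, a CD28 relative of activated and follicular helper T cells, was at -0.07 to 0.39, with a median of 0.21, in control males and at 0.49, 0.34, 0.34, 0.30 and 0.37 in CR males. All 5 CR males lay in the upper part of the control range or above it. The male difference was 0.22 ± 0.10 (adjusted p = 0.702; two-sided exact permutation p = 0.0346), -0.15 with median centring and 0.02 ± 0.14 for the dimmer Icos probe. In females Icos was at -0.05 to 0.47 (median 0.17) in controls and -0.10 to 0.54 (median 0.17) in CR pups (difference 0.05 ± 0.10).

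Ctla4, the inhibitory counterpart of CD28, was at -0.11 to 0.50, with a median of 0.13, in control males and 0.18, 0.17, 0.18, 0.13 and 0.20 in CR males, and at -0.20 to 0.18 (median -0.04) and -0.19 to 0.24 (median 0.10) in control and CR females. Its diet differences were 0.02 ± 0.09 in males and 0.09 ± 0.09 in females. Cd28 itself had differences of -0.10 ± 0.10 and 0.08 ± 0.10, and Cd40lg, the CD40 ligand by which helper T cells stimulate B cells, 0.03 ± 0.13 and -0.21 ± 0.13. No costimulation gene except Icos in males had an unadjusted p under 0.05 for diet.

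Among the adhesion and surface markers, Thy1 was the one with an unadjusted p under 0.05. In the rat Thy1 (CD90) is carried by thymocytes, recent thymic emigrants and marrow precursors and is lost from mature T cells. The control males were at -0.29 to 0.43, with a median of 0.17, and the CR males at -0.19, -0.28, 0.12, -0.04 and -0.50. The difference was -0.29 ± 0.14 (adjusted p = 0.7; two-sided exact permutation p = 0.11), and it stayed below 0 under every alternative run, from -0.57 to -0.20. In females Thy1 was at -0.32 to 0.47 (median 0.04) in controls and -0.05 to 0.30 (median 0.00) in CR pups (difference 0.03 ± 0.13).

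Cd2 and Cd5, surface proteins of nearly all T cells, had male differences of -0.02 ± 0.13 and -0.04 ± 0.16 and female differences of 0.04 ± 0.12 and -0.16 ± 0.15. Cd6, a relative of CD5, had 0.12 ± 0.11 and 0.01 ± 0.11, and its dimmer probe -0.15 ± 0.15 and -0.11 ± 0.14. Cd44, an adhesion receptor of many leukocytes that is raised on memory T cells, had 0.05 ± 0.09 and 0.09 ± 0.09. All of these differences lay within about 1 SE of 0 or little more.

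**Figure D3:**
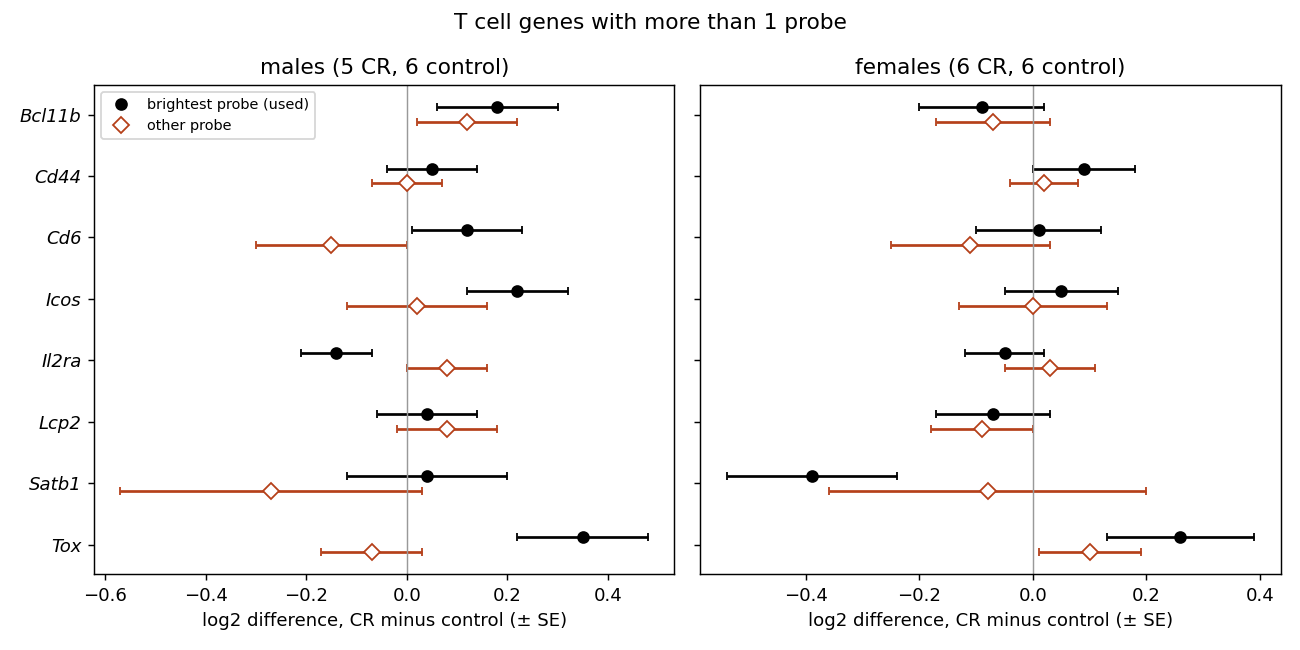
Log2 difference between CR and control pups (± SE) for the 8 T cell genes with more than 1 kept probe, in males and females; filled circles are the brightest probe, which the text uses, and open diamonds the other probe. The probes of Tox, Il2ra, Cd6 and Satb1 lie on opposite sides of 0 in males, and those of Bcl11b and Lcp2 on the same side in both sexes.

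Whether the diet difference itself differed between the sexes was tested for each gene. No gene passed (0% of all features did); the unadjusted p was under 0.05 for 2 of the 32 on the side of a higher value in males, against 1.92% of all features, and for 0 on the other side, against 2.71%. These were Tcf7, where the male difference exceeded the female one by 0.79 ± 0.36 (adjusted p = 0.935), and Cd3d, where it did so by 0.22 ± 0.10 (adjusted p = 0.935). For the 32 genes the median of this quantity was 0.14 beside -0.01 for all features, and 25 were above 0, where 47.3% of all features were. With median centring the median was -0.22 beside -0.16 for all features, and Cd3d was at -0.37. There 5 were above 0, where 23.6% of all features were.

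Between the sexes, averaged over the diets, none of the 32 genes passed, where 12 features did (0.0595%). The unadjusted p was under 0.05 for 2 on the side of higher values in males, Cd3d (0.10 ± 0.05, adjusted p = 0.671) and Ctla4 (0.14 ± 0.06, adjusted p = 0.67), against 3.64% of all features, and for 0 on the other side, against 3.79%. The sex differences of the 32 genes ran from -0.12 to 0.21, with Il7r the highest at 0.21 ± 0.12 and Cd5 the lowest at -0.12 ± 0.11.

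Arrays of both diets shared a slide on 4 slides for males and on all 6 for females, which allowed the differences to be read within a slide. In males 5 genes were higher in the CR pup on 4 of 4 slides, Tcf7 (by 0.46 to 1.26), Il7r (0.18 to 0.66), Tox (0.14 to 0.74), Cd3e (0.09 to 0.52) and Cd40lg (0.14 to 0.42), and Il2ra alone of the 32 was lower on 4 of 4 (-0.25 to -0.01). In females Cd3g was lower in the CR pup on each of the 5 slides where both pups had a value (-0.26 to -0.01). In females 6 other genes were lower in the CR pup on 5 of 6 slides, Satb1 (-0.73 to 0.23), Cd4 (-0.53 to 0.28), Cd40lg (-0.44 to 0.17), Il2rb (-0.46 to 0.08), Cd5 (-0.36 to 0.11) and Bcl11b (-0.27 to 0.34). Of the remaining genes Cd3e was lower on 4 of 6 (-0.51 to 0.13), Tox higher on 4 of 6 (-0.11 to 0.58), and none was higher on more than 4. Each slide gives 1 pup of each diet, so these values are a description. The share of all features with such runs over the slides was not computed, so the counts are not a result about the T cell genes. Across the 23 arrays the median level of the 32 genes was below 0 on 3, control male 4 (-0.09), control female 6 (-0.05) and CR female 6 (-0.12), and the last 2 of these were on the same slide.

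The 32 genes did not move as one block from pup to pup. Over the 496 pairs of genes, the correlation of their deviations from the group means had a median of 0.23, and 76.8% of the pairs were above 0. Cd8a and Cd8b, the chains of one receptor, had the highest value (0.89), followed by Cd3e and Cd2 (0.87), Cd3z and Cd2 (0.84), and Cd3e and Cd3z (0.80). Thy1 and Cd44 had the lowest (-0.71). Among transcription factors Lef1 went with Tox (0.74) and Bcl11b (0.72). The points share the pool, the array and the normalization. The same median and share were not computed for pairs of all features, so they cannot be read as particular to the T cell genes.

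Against Cd3e, 31 correlations were tested over the 23 arrays with a permutation test within groups. The test does not compare a gene of the list with features outside it. Cd3g had no value on CR female 4 and was entered there at its group mean. Cd2 had Pearson's r = 0.87 (adjusted p = 0.00062) and Spearman's rho = 0.80 (adjusted p = 0.00124). Without CR female 6 and CR male 1, the arrays whose Cd3e lay farthest from the median, r was 0.78. Cd3z followed (r = 0.80, adjusted p = 0.0102; rho = 0.67, adjusted p = 0.0211; 0.79 without the 2 arrays), then Cd8a (r = 0.74, adjusted p = 0.0116; rho = 0.59, adjusted p = 0.0252; 0.58 without them). Cd4 had r = 0.71 (adjusted p = 0.0116), rho = 0.65 (adjusted p = 0.0227) and 0.69 without them. Of the other genes of the complex, Cd3d had r = 0.22 (adjusted p = 0.496) and rho = 0.20 (adjusted p = 0.50), and Cd3g r = 0.19 (adjusted p = 0.496) and rho = 0.19 (adjusted p = 0.518), while the correlation of Cd3d with Cd3g was 0.61. Their probes were the brightest of the complex, at mean log2 intensities of 14.26 and 13.96 against 11.46 for Cd3e. Thy1 had r = -0.23 (adjusted p = 0.429) and rho = -0.29 (adjusted p = 0.346).

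The feature outside the list that was most like Cd3e over the 23 arrays, within groups, was Prkch (r = 0.93), protein kinase C eta. It was followed by Selenof (0.90), Rps4x (0.88), Spg21 (0.87), Cd96 (0.86), Nedd4 (0.84), the unnamed transcript CO575743 (0.84), Crmp1 (0.84), Sesn1 (0.83) and Adcy3 (0.83). These are the highest of 20177 features and are given without a test. The closest gene of the list, Cd2, had r = 0.87, so features outside the list were as close to Cd3e.

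**Figure D4:**
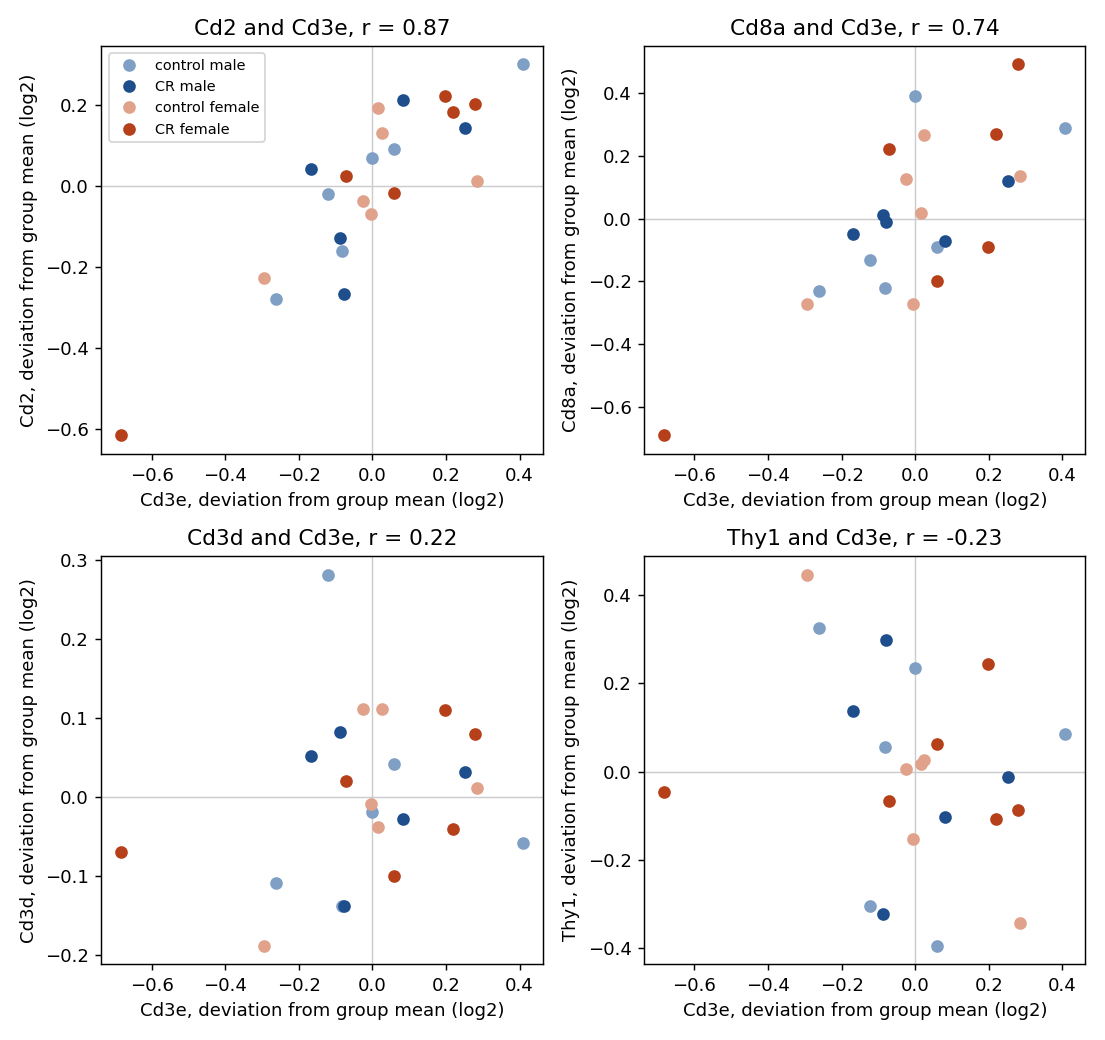
Deviation of Cd2, Cd8a, Cd3d and Thy1 from their group means (vertical axes, log2) against that of Cd3e (horizontal axes, log2) on the 23 arrays, coloured by group. Cd2 and Cd8a rise along the diagonal with Cd3e (r = 0.87 and 0.74), with CR female 6 at the lower left, while Cd3d (0.22) and Thy1 (-0.23) spread without a clear line.

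The other genes of the receptor's signalling path, such as the adaptors and kinases downstream of LAT, were given by a separate list, of which 26 of 30 names were kept. Their median differences were 0.05 in males, with 14 of 26 above 0, and -0.08 in females, with 8 of 26 above 0. None passed; the unadjusted p was under 0.05 for 0 higher and 4 lower in the mean of the sexes, against 2.46% and 4.88% of all features. In males it was so for 1 higher and 1 lower, against 3.02% and 4.09%, and in females for 0 higher and 5 lower, against 2.01% and 2.68%. Among the 4 with the smallest p were Ptpn6, the phosphatase SHP-1 that restrains the receptor (-0.28 ± 0.10, adjusted p = 0.585), Was (-0.22 ± 0.08, adjusted p = 0.588) and Vav1 (-0.22 ± 0.09, adjusted p = 0.592). These 3 genes are used by B cells and other blood cells too.

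Genes of naive T cell circulation and maintenance (18 of 20 kept) had medians of 0.05 in males and -0.06 in females. Klf2, which keeps naive T cells in circulation, differed by -0.19 ± 0.07 in the mean of the sexes (adjusted p = 0.585). Itga6 (0.21 ± 0.11) and Ets1 (0.17 ± 0.10) were also among the 4 with the smallest p. Genes of helper, regulatory and effector T cells (16 of 25 kept) had medians of -0.01 and -0.02, with Ccr6 at -0.16 ± 0.06 (adjusted p = 0.588), Tnfrsf18 at -0.22 ± 0.10, Gzmk at 0.36 ± 0.18 and Ccl5 at 0.21 ± 0.15 in the mean of the sexes. Thymocyte genes (8 of 9 kept) had medians of 0.04 and 0.05, with Rag1 at 0.16 ± 0.09, Arpp21 at 0.07 ± 0.06, Cd1d1 at -0.05 ± 0.05 and Ccr9 at -0.05 ± 0.05.

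Markers of other blood cells were read beside the T cell genes. The B cell markers (11 of 15 kept) were all below 0 in males and 2 of 11 were above 0 in females, with medians of -0.37 and -0.31. In the mean of the sexes limma's unadjusted p was under 0.05 for 9 of 11 on the lower side, against 4.88% of all features. It was so for 0 on the higher side, against 2.46%. Ms4a1, which encodes CD20, differed by -0.52 ± 0.13 in the mean of the sexes (adjusted p = 0.485), Blk by -0.37 ± 0.11 and Cd22 by -0.27 ± 0.08, and none passed. The mean level of the kept B cell markers per array ran from -0.58 to 0.11 in CR males against -0.08 to 0.61 in control males, and from -0.23 to 0.23 in CR females against -0.07 to 0.74 in control females. The NK cell markers (9 of 11 kept) were all above 0 in males (median 0.23) and 5 of 9 in females (median 0.01), with per-array means of 0.03 to 0.27 in CR males against -0.48 to 0.09 in control males. Of all features 47.1% were above 0 in males and 51.6% in females. For the NK markers limma's unadjusted p was under 0.05 on the higher side for 2 in the mean of the sexes, 3 in males and 1 in females. The shares of all features there were 2.46%, 3.02% and 2.01%. None was under 0.05 on the lower side, against 4.88%, 4.09% and 2.68%. Klrd1, which encodes CD94, differed by 0.65 ± 0.15 in males (adjusted p = 0.518) and Klrb1a by 0.43 ± 0.14, while in the mean of the sexes Ncr1 differed by 0.09 ± 0.05 and Gzma by 0.26 ± 0.20.

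Monocyte markers (9 of 11 kept) had medians of 0.12 in males and -0.20 in females. Neutrophil markers (6 of 10 kept: S100a8, S100a9, Mpo, Camp, Lcn2 and Ngp) had 0.26 and 0.28. In the mean of the sexes all 6 lay above 0, where 50.7% of all features did. Limma's unadjusted p was under 0.05 there for 2 higher (against 2.46% of all features) and 0 lower (against 4.88%). Red cell markers (9 of 11 kept) had medians of 0.66 and -0.29, and platelet markers (7 of 9 kept) -0.07 and -0.31. The per-array means of the red cell markers ran from -1.54 to -0.05 in control males, -1.20 to 0.39 in CR males, -1.27 to 0.88 in control females and -0.99 to 1.54 in CR females. None of these markers passed an adjusted p of 0.05. In the mean of the sexes S100a9 differed by 0.57 ± 0.22 and Cd14 by -0.27 ± 0.17. The defining markers that were not kept, Cd79a and Pax5 of B cells among them, have no value here. The kept markers have signal because the filter on dim probes requires it. The part of these other cells in the T cell genes' values was not tested.

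**Figure D5:**
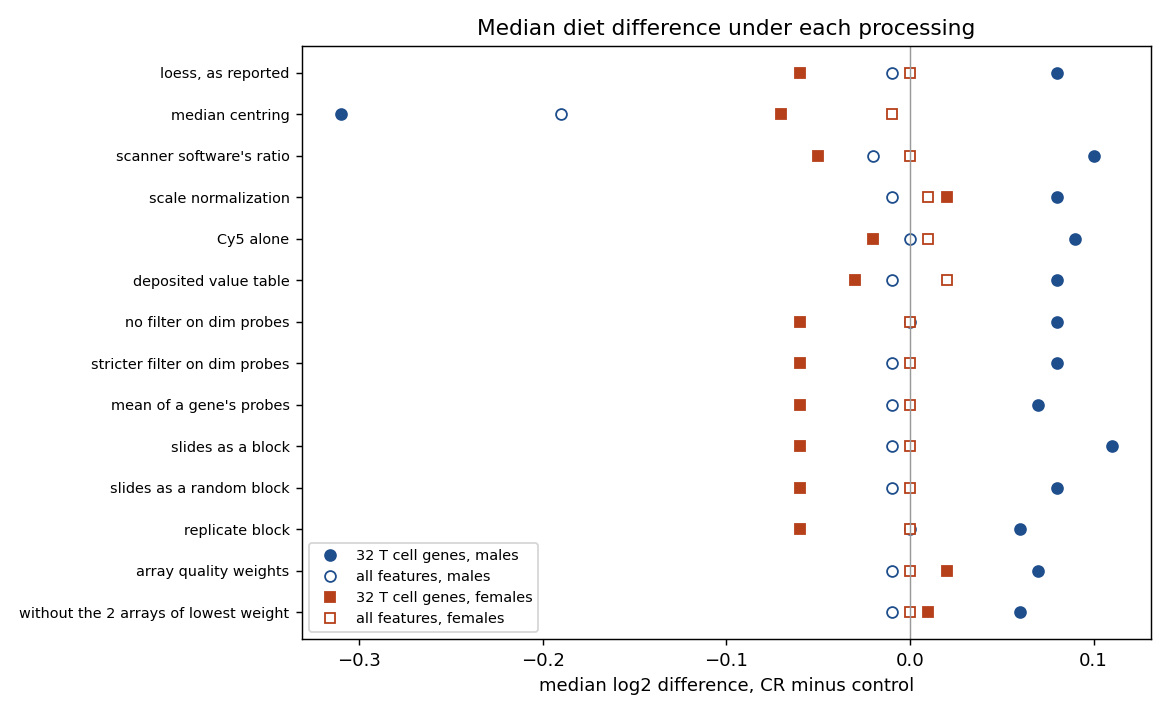
Median log2 difference between CR and control pups (horizontal axis) of the 32 T cell genes (filled) and of all features (open), in males (circles) and females (squares), under the reported processing and 13 alternatives. The male median of the T cell genes lies between 0.06 and 0.11 in every setting except median centring, where it is -0.31 and that of all features -0.19, and the female median lies between -0.07 and 0.02.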

How the data were processed

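Per the labels' protocols, each pup's RNA was labelled with Cy5 and set against a Cy3 pool, and the submitters' processing notes name Agilent Feature Extraction 10.5.1.1. Per the file headers, each deposited scan holds spot intensity (mean and background), a log10 ratio of Cy5 over Cy3, and flags; the deposited value table holds the authors' log2 values, whose columns have a median of 7.23. Their exact normalization is not given in the sources used here, and they followed each array's Cy5 signal (correlations of 0.973 to 0.998). Intensities were corrected with normexp (offset 50) and normalised within each array by loess in limma 3.58.1 under R 4.3.3. A probe was kept where it was well above background on a share of 0.5 of the arrays of a group; the brightest kept probe stood for its gene. A limma model of the 4 groups gave 5 contrasts, with Benjamini-Hochberg adjustment over 20177 features. It was also run on simulated data, and no result of that run is used here. Simulated data cannot show how the model performs on these arrays, where some pups may share a dam. Precision is limited by how many arrays each group has.

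The members and lists were chosen with earlier results of these data known. The genes given by array are those of the receptor complex, coreceptors, proximal signalling and transcription factors, and any other with an unadjusted p under 0.05. For these the male and female differences are printed, from which the mean of the sexes and the difference in diet effect between the sexes follow; male against female differences are given as a range and for 4 genes only. Of other lists the rule names up to 4 genes with the smallest p for the mean of the sexes; Klrd1 and Klrb1a are among them, with their values in males. A few genes of these lists are counted but not reported here by name. Replicate numbers were not used as pairs in the reported fit, and whether they pair the pups is not stated. Probe positions are the files' own (rn4), and promoter sequences are from RefSeq (GRCr8).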

Additional observations from a re-analysis of the deposited data

Results flagged for a closer look

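In 100 group values checked (25 genes in 4 groups), 8 held 1 pup far from the rest, where chance gives about 1 in 20. CR female 6 was such a pup for Cd3e (-0.60, the nearest other CR female at 0.01), Cd3z (-0.51, nearest 0.28) and Runx3 (-0.17, nearest 0.18). It also had the lowest array quality weight. Cd4 stood high in CR male 2 (0.59, nearest 0.17), and Cd8b in CR male 1 (0.44, nearest -0.05). Zap70 stood high in control female 3 (0.47, nearest 0.17), Il2ra high in CR female 1 (0.26, nearest 0.01) and Txk low in control female 6 (-0.33, nearest -0.02).

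The diet difference was larger in males than in females, by the unadjusted p of the interaction in limma, for Tcf7 (0.79) and Cd3d (0.22). Neither passed the adjustment over all features (adjusted p = 0.935 for both). The interaction of Cd3d was -0.37 with median centring, and that of Tcf7 ran from 0.47 to 0.96 over the alternatives.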

How the results depend on the processing

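Of the 32 genes, 0 were called in any comparison under any alternative. With median centring the medians of the T cell genes were -0.19 (mean of the sexes), -0.31 (males), -0.22 (difference of the diet effects) and -0.07 (sexes), and 0 genes had an unadjusted p under 0.05 for the last 2. Its male differences on the other side of 0 were Cd3d -0.32, Cd3g -0.47, Zap70 -0.42, Lat -0.47, Bcl11b -0.30, Cd3e -0.32, Cd8b -0.20, Cd8a -0.36, Lef1 -0.33, Satb1 -0.40, Lcp2 -0.38, Tox -0.05, Icos -0.15, Runx3 -0.22, Txk -0.15, Gata3 -0.21 and Ctla4 -0.16. Its female ones were Txk -0.03, Thy1 -0.02 and Fyb -0.05, and Cd3d was at -0.13 in the mean of the sexes, -0.37 in the difference of the diet effects and -0.08 between the sexes. Features brighter than the median T cell gene had a male median of -0.49 under it.

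The count of genes at an unadjusted p under 0.05 was 2 in the mean of the sexes (1 with the scanner software's ratio, 6 with array quality weights, 7 without the 2 arrays of lowest weight, an alternative chosen after seeing the data). In males it was 7 (4 with the scanner's ratio, 4 with scale normalization, 3 with Cy5 alone, 4 with the mean of a gene's probes). In females it was 1 (2 with the scanner's ratio, 0 with the mean of a gene's probes, 2 with the slide as a fixed or as a random block, 2 with the replicate block, 4 with array weights). For the difference of the diet effects it was 2 (1 with the scanner's ratio, 0 with Cy5 alone, 4 with the slide as a block, 1 with the replicate block, 0 without the 2 arrays) and between the sexes 2 (1 with the scanner's ratio, with Cy5 alone, with the deposited table, with the stricter filter, with the replicate block and with array weights). Features called in the mean of the sexes numbered 1 with array weights and 7 without the 2 arrays, and in males 1 with the replicate block and 4 without the 2 arrays. The share of all features at an unadjusted p under 0.05 was not computed for the alternatives. A change in these counts therefore cannot be read as particular to the T cell genes.

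Signs also turned with scale normalization for Cd3z in males (0.04) and in females for Cd3d (-0.14), Lat (0.03), Bcl11b (0.06), Cd3e (0.03), Cd8b (0.06), Cd8a (0.01), Cd3z (0.33), Tcf7 (0.09), Il7r (0.03) and Thy1 (-0.03). With Cy5 alone they turned for Lat in males (-0.09) and in females for Lcp2 (0.02), Cd3z (0.02), Txk (-0.01), Il7r (0.06), Thy1 (-0.03) and Fyb (-0.03). The deposited table turned Ctla4 in males (-0.0049) and Cd3z (0.01), Txk (-0.02) and Fyb (-0.003) in females, the scanner's ratio Cd3d (-0.02) and Fyb (-0.02) in females. Array weights turned Cd3d (-0.03), Cd3e (0.02), Cd8b (0.02), Cd8a (0.02), Cd3z (0.13), Tcf7 (0.07), Il7r (0.02) and Thy1 (-0.03) in females, and leaving out the 2 arrays Cd3e (0.01), Cd8b (0.04), Cd8a (0.03), Cd3z (0.14) and Il7r (0.00044). In males the mean of a gene's probes put Satb1 at -0.11, the slide as a block Cd4 at 0.01, and the replicate block Satb1 at -0.03 and Ctla4 at -0.03. The cause was not tested.

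Same-numbered arrays of different groups correlated from -0.41 to 0.46 (median 0.09), and those of other numbers from -0.48 to 0.58 (median -0.03). Of the 23 arrays, 5 were closest to one of their own number. Likeness of arrays cannot tell whether same-numbered pups share a dam or were handled together, so the numbers entered only as the replicate block. Leaving out 1 array in turn, the counts at an unadjusted p under 0.05 ran from 1 to 4 (mean of the sexes), 3 to 7 (males; 3 without CR male 5, 4 without control male 2 or 4, CR male 1, control female 2, 4 or 5, or CR female 5), 0 to 3 (females), 0 to 5 (difference of the diet effects) and 0 to 3 (sexes). For these counts, too, the share of all features was not computed. The features called ran from 0 to 3 in the mean of the sexes (3 without CR male 2, 1 without CR female 1), from 0 to 4 in males (4 without CR male 2) and from 10 to 12 between the sexes. The medians ran from -0.02 to 0.05, 0.04 to 0.11, -0.09 to 0.01, 0.10 to 0.17 and 0 to 0.05 in the same order. Single differences that changed side ran in males from -0.01 to 0.10 (Lat), -0.05 to 0.10 (Satb1), -0.02 to 0.09 (Lcp2), -0.04 to 0.08 (Ctla4) and -0.18 to 0.0043 (Cd4). In females they ran from -0.04 to 0.02 (Cd3d), -0.18 to 0.01 (Cd3e), -0.14 to 0.04 (Cd8b), -0.20 to 0.03 (Cd8a), -0.07 to 0.14 (Cd3z), -0.01 to 0.11 (Icos), -0.27 to 0.05 (Tcf7), -0.0003 to 0.13 (Runx3), -0.05 to 0.14 (Txk), -0.08 to 0.02 (Il7r), -0.03 to 0.12 (Thy1) and -0.04 to 0.06 (Fyb).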

Other observations

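The receptor's own alpha, beta, gamma and delta chains were read from the kept probes whose description names them. Of 49 alpha chain probes, 34 were above 0 in CR against control males and 27 in females, with medians of 0.03 and 0.01. Of all features 47.1% were above 0 in males and 51.6% in females. Several of the chain probes carry the same entry name, so they are not independent, and they were not read with median centring. Of 10 beta chain probes, 6 and 3 were above 0 (medians 0.02 and 0), of 17 delta chain probes 14 and 9 (0.08 and 0.03), and of 2 gamma chain probes 1 and 0 (0.03 and -0.07). The beta chain probes followed Cd3e from pup to pup more closely (median correlation 0.52, from 0.03 to 0.81) than the alpha chain probes (0.19, from -0.50 to 0.55); the difference was not tested, and probes of one chain can share sequence. Trat1, the receptor-associated adaptor, has a probe under its accession only, with differences of 0.06 ± 0.12 in males and 0.09 ± 0.12 in females.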
